A study of Mus musculus with 35 samples.

Results

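Tracheal allografts carried for 25 days were compared with untransplanted trachea. Mouse tracheal RNA had been hybridised to 35 Affymetrix arrays, 5 for each of 7 groups. The 10 arrays described here are the 5 allografts of day 25, which are tracheas placed for 25 days in recipients that did not match the donor's major histocompatibility complex (MHC), and the 5 native tracheas, which were never transplanted. The transplants were heterotopic, that is, placed at a site other than the airway. The labels used here give no strain, sex, age, drug treatment or graft site, and they do not say whether an array holds 1 animal or a pool. Allografts of day 14 and isografts of day 25 (tracheas in MHC-matched recipients), also 5 arrays each, served as comparison groups. A probe set entered when its log2 intensity was 5 or more in at least 5 of the 10 arrays, a rule that does not use the difference between the groups. It kept 12170 of 22626 non-control probe sets. Of these, 11160 named 1 gene, 441 named several and 569 named none in the annotation used, and the named ones covered 7535 genes.

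The trachea is lined by a pseudostratified epithelium of secretory cells, which make secretoglobins, mucins and antimicrobial proteins, of ciliated cells, which move the mucus, and of basal cells, the progenitors of both. Cartilage rings, smooth muscle, submucosal glands, vessels and nerves lie beneath it. In a mismatched tracheal graft, T cells and natural killer cells of the host attack donor cells, interferon-gamma drives antigen presentation and chemokines in the graft, and scar tissue made by fibroblasts can close the lumen. The histology of these grafts was not analysed here, so the occlusion itself is not among the measurements.

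All levels below are the deposited log2 intensities, and all differences are log2 differences with the day 25 allograft first, so that a difference of 1 is a 2-fold change. A gene is represented by its brightest tested probe set. "Rose", "fell" and "called" mean an adjusted p (limma with Benjamini-Hochberg adjustment over the 12170 probe sets) under 0.05. Values of about 2 to 4 lie near the lower end of the scale, where a difference depends on the background model behind the values, so a large difference from such a level is not a precise fold. The p-values measure the spread between arrays, which are not known to be separate animals. In bulk tissue, fewer cells of a type and less RNA per cell cannot be told apart.

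The arrays were alike in their overall distribution: medians over non-control probe sets ran from 5.07 to 5.30 and 51.0% to 54.3% of values reached 5. Genes of neighbouring tissue were widespread (thyroid, muscle and brown fat genes were on all native arrays, and their values are given with those tissues), but 3 arrays stood apart from the rest of their group. Native replicate 5 carried skin markers, with a mean of 6.32 over the 15 skin genes against 2.96 to 3.24 in the other native arrays. Its mean of skeletal muscle genes was also the highest of the native arrays. Day 25 allograft replicate 1 was highest for skeletal muscle genes, and replicate 2 for Ucp1, a gene of brown fat, of which replicate 4 held an intermediate level. Results that touch these tissues are also given without these 3 arrays, called below the 3 arrays with neighbouring tissue, a choice made after seeing the data. Leaving them out does not even out these tissues between the groups. The native arrays that stay held Ucp1 at 10.65 to 11.67, above every allograft that stays. Results of that fit are therefore not corrected for fat or muscle. Of the labelled tissue's defining markers, cartilage and smooth muscle genes were present on the arrays of both groups, whereas many epithelial markers, but not all, were low in the day 25 allografts: none of the 5 reached 5 for 13 of 18 secretory, 17 of 20 junction and simple keratin, 7 of 12 basal and 2 of 6 ciliated genes tested.

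Day 25 allografts differed from native trachea in 4427 of 12170 tested probe sets (36.4%), of which 2138 (17.6%) rose and 2289 (18.8%) fell. At least 2-fold differences were called in 2252 probe sets (18.5%), 1127 higher (9.26%) and 1125 lower (9.24%). Counted by gene, 1379 of 7535 rose (18.3%) and 1507 fell (20.0%), and the median gene differed by -0.07. These shares by gene are the background for each count of list members against native trachea given below. When the arrays were instead centred on 13 reference genes, all differences shifted by -0.12 and the split became 1631 higher and 3050 lower (34.8% higher, against 48.3%). With the arrays centred on their medians, the split was 2366 higher and 1980 lower. Gusb, a gene also in the lysosome list, is 1 of the 13 reference genes. It differed by 1.46, so much of the reference shift comes from it. The balance of rises and falls therefore rests on the scaling, and these settings do not settle it. The filter itself fixed part of the calls: 243 probe sets reached 5 in no allograft array and all 243 were called lower, while 196 reached 5 in no native array and 193 of them were called higher. In 9416 probe sets all 10 arrays reached 5, and 1427 of those rose and 1546 fell. Allograft and native arrays did not overlap in 2528 probe sets (20.8%).

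**Figure D1:**
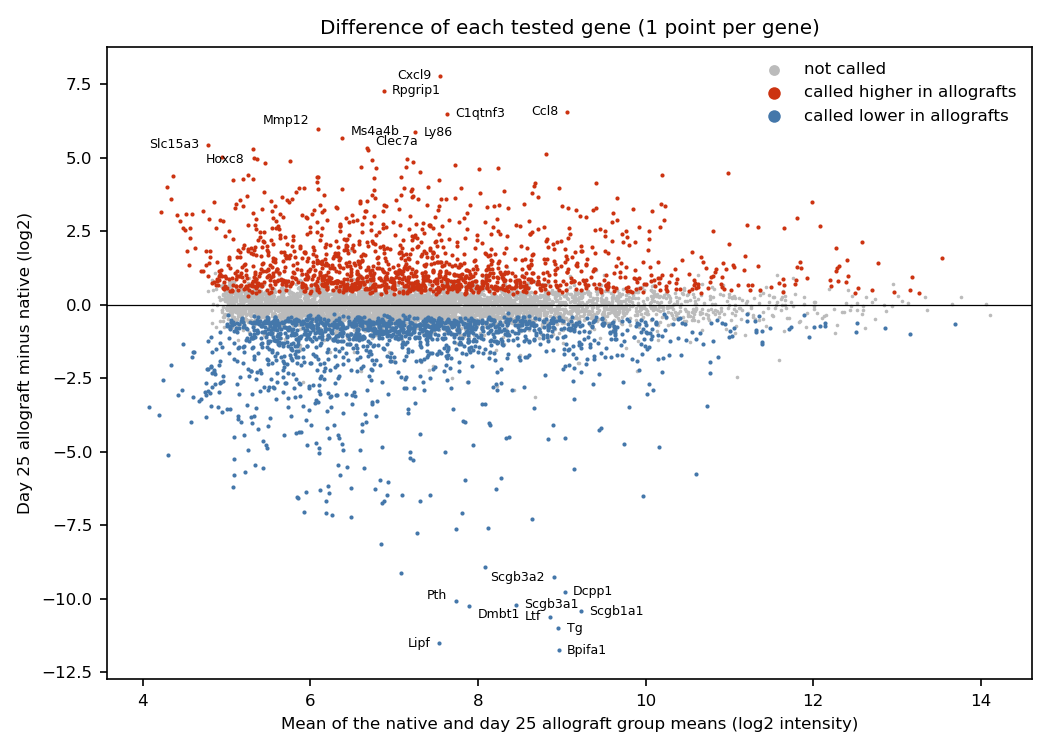
Difference between day 25 allografts and native trachea (log2, vertical axis) against the mean of both group means (log2 intensity, horizontal axis) for the 7535 tested genes, 1 point each, coloured by the call (adjusted p under 0.05). The 10 largest falls and 10 largest rises among genes whose arrays do not overlap are named, from Bpifa1 at -11.76 to Cxcl9 at 7.79.

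The 10 largest falls among genes whose arrays did not overlap were airway and gland products and products of the thyroid and parathyroid. They were Bpifa1, Lipf, Tg, Ltf, Scgb1a1, Dmbt1, Scgb3a1, Pth, Dcpp1 and Scgb3a2, with differences from -11.76 to -9.28. The 10 largest rises were Cxcl9, Rpgrip1, Ccl8, C1qtnf3, Mmp12, Ly86, Ms4a4b, Slc15a3, Clec7a and Hoxc8, from 7.79 to 5.29. Cxcl9 and Ccl8 are chemokines, Mmp12 is the macrophage metalloelastase, and Clec7a is a receptor for fungal glucans on myeloid cells.

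The secretory epithelium showed the deepest falls. Of 21 secretory genes named on the array, 18 passed the filter and all 18 fell, with differences from -11.76 to -2.80, against 20.0% of all tested genes. For 13 of the 18 no allograft array reached 5, so that these had to differ once they passed. Without a filter 19 of the 21 were called lower, and the median over the 21 was -7.62 against -0.07 for all tested genes. Spdef, Muc5ac and Chil4 did not pass the filter. Scgb1a1 encodes the club cell secretory protein and stood at 14.43, 14.48, 14.36, 14.53 and 14.41 in the 5 native arrays. The 5 allografts read 4.30, 3.91, 3.85, 4.33 and 3.72, a difference of -10.42 (SE 0.53, adjusted p = 1.35e-16). The groups did not overlap. Bpifa1, a secreted surfactant-like protein of the upper airway that acts against bacteria, stood at 14.74, 14.97, 14.51, 15.04 and 14.94 in native trachea. In the allografts it read 3.15, 2.91, 3.10, 2.89 and 3.37, a difference of -11.76 (SE 0.42, adjusted p = 6.24e-20), the largest of all tested genes. Ltf, the iron-binding lactoferrin, was uneven in allografts, at 3.98, 5.51, 2.92, 2.66 and 2.68, against 14.06 to 14.20 in native arrays. Its highest allograft value, in replicate 2, was still far below every native array, and the difference was -10.61 (SE 0.53, adjusted p = 9.32e-17). The polymeric immunoglobulin receptor Pigr differed by -8.14, the mucin Muc5b by -7.62, and the antimicrobial lectin Reg3g by -8.93.

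Ciliated cells were represented by fewer measurable genes. Of 13 ciliated genes 6 passed and all 6 fell, with differences from -3.94 to -1.05, 2 of them with no allograft array at 5. Without a filter 9 of 13 were called lower, and the median over all 13 was -1.23. Foxj1, the transcription factor that sets the motile cilium programme, read 9.14, 7.94, 7.89, 7.06 and 5.06 in native trachea and 4.64, 4.40, 4.24, 4.12 and 4.24 in allografts, a difference of -3.09 (SE 0.45, adjusted p = 1.29e-06). All 5 allografts were below all 5 native arrays, but native replicate 5 stood close to them. Tppp3, a tubulin-binding protein of ciliated cells, read 9.81, 9.90, 9.99, 10.02 and 9.27 in native arrays and 7.13, 5.42, 5.51, 5.93 and 5.28 in allografts, a difference of -3.94 (SE 0.45, adjusted p = 1.48e-08).

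Basal cell genes and general epithelial genes fell as well. Of 20 basal and squamous genes, 12 passed and 10 fell, Pkp1 (-1.36, adjusted p = 0.146) and the nerve growth factor receptor Ngfr (-0.28, adjusted p = 0.236) not being called. For 7 of the 12 no allograft array reached 5, and without a filter 10 of 20 were called lower and 1 higher. The basal keratin Krt5 read 9.46, 8.92, 8.83, 8.18 and 10.60 in native trachea and 4.01, 2.95, 4.33, 3.49 and 3.63 in allografts, a difference of -5.52 (SE 0.59, adjusted p = 3.03e-09). The groups did not overlap, and the highest native value belonged to replicate 5, the array with skin markers. Krt15, another basal keratin, differed by -7.10 (SE 0.62, adjusted p = 3.36e-11), and the desmosome protein Dsp by -7.14 (SE 0.58, adjusted p = 8.84e-12). The part of skin in the native level of these keratins was not tested, but without native replicate 5 and both allografts with neighbouring tissue, 9 of the 12 still fell.

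All 20 tested genes of the 23 in the list of epithelial junctions and simple keratins fell, with differences from -7.21 to -1.33, 17 of them with no allograft array at 5. Without a filter 21 of 23 were called lower. Epcam, the epithelial cell adhesion molecule, read 11.52, 9.93, 9.93, 10.53 and 9.12 in native trachea and 3.38, 3.03, 3.83, 3.41 and 4.08 in allografts, a difference of -6.66 (SE 0.47, adjusted p = 2.61e-13). The keratins of simple epithelia fell too, Krt18 differing by -7.21 (SE 0.35, adjusted p = 7.12e-17) and Krt19 by -7.06 (SE 0.61, adjusted p = 2.55e-11). E-cadherin, Cdh1, differed by -5.56, while the tight junction protein Ocln differed by -1.33.

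Transcription factors of the epithelium followed. Of 18 on the array 11 passed, 10 fell and 1, Grhl2, rose, and for 6 of the 11 no allograft array reached 5. Without a filter 16 of the 18 were called lower. The airway forkhead factor Foxa1 read 9.19, 9.82, 9.98, 9.28 and 8.86 in native trachea and 2.98, 2.96, 3.18, 2.95 and 3.01 in allografts, a difference of -6.41 (SE 0.38, adjusted p = 6.83e-15). Esrp1, an epithelial splicing regulator listed with them, differed by -5.70 (SE 0.37, adjusted p = 3.7e-14), and Sox2, which specifies the proximal airway, differed by -4.88. The rise of Grhl2 (0.56, SE 0.18, adjusted p = 0.0168) depended on the probe set: its other tested probe set fell by 3.07, and the mean of both fell by 1.25. The limma call of Grhl2 was lost without native replicate 1 (adjusted p = 0.0575) and without day 25 allograft replicate 3 (adjusted p = 0.0577). It was also lost with reference gene centring (adjusted p = 0.077).

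**Figure D2:**
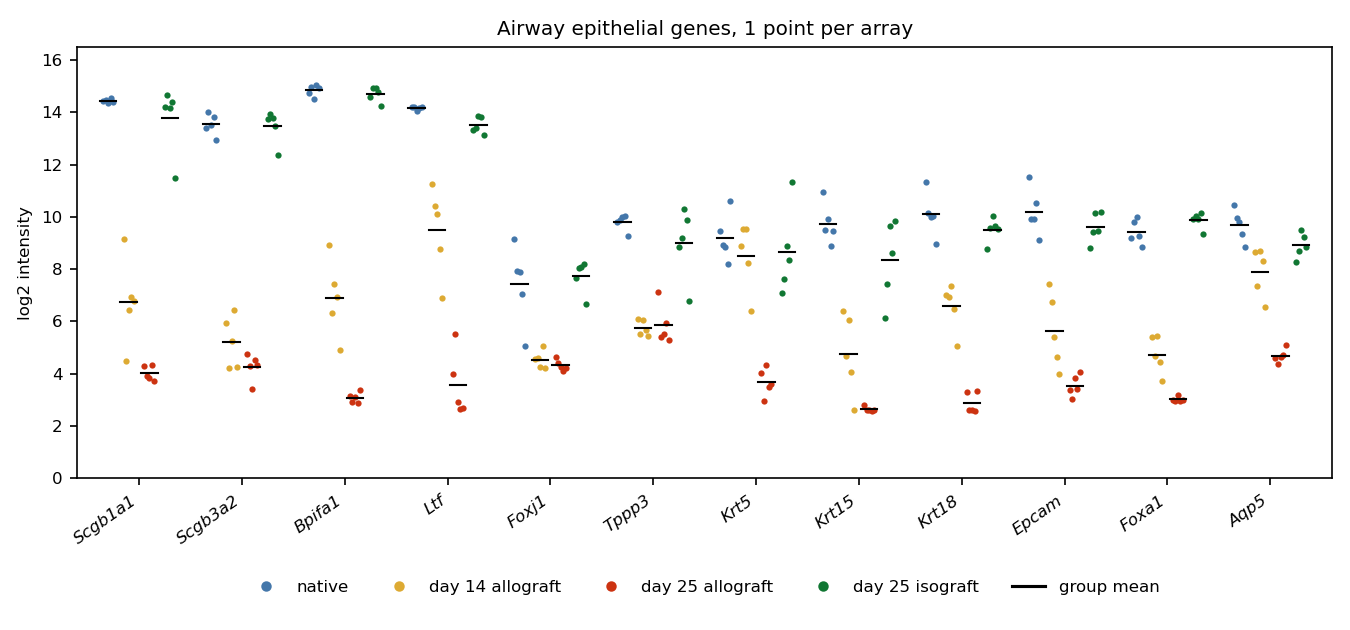
Levels of 12 airway epithelial genes (log2 intensity, vertical axis) on each array of the native, day 14 allograft, day 25 allograft and day 25 isograft groups, 5 points per group with the group mean as a bar. The day 25 allograft points lie below every native point in all 12 genes, and isograft values of Scgb1a1 run from 11.49 to 14.65.

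Genes that carry out the work of the epithelium fell with it. In the list of ion and water transport, 10 of 20 passed and 8 fell, where 20.0% of all tested genes fell. Aqp5, the water channel of glands and surface cells, read 10.47, 9.95, 9.80, 9.36 and 8.86 in native trachea and 4.61, 4.38, 4.66, 4.72 and 5.10 in allografts, a difference of -4.99 (SE 0.37, adjusted p = 9.83e-13). Atp1b1, the beta subunit of the sodium pump, differed by -5.58 (SE 0.44, adjusted p = 4.31e-12), and the sodium channel subunits Scnn1a and Scnn1b differed by -3.09 and -1.78. The chloride channel gene Cftr was below the filter, at 3.21, 3.73, 2.99, 3.58 and 4.36 in native trachea and 4.41, 4.27, 4.84, 3.95 and 4.11 in allografts, so no change in it could be read. Of 25 genes of xenobiotic and aldehyde metabolism, 24 passed, 19 fell and 1 rose. The carbonyl reductase Cbr2 differed by -6.49 (SE 0.55, adjusted p = 2.42e-11), the sulfotransferase Sult1d1 by -6.48 (SE 0.59, adjusted p = 1.05e-10), and Cyp2f2, a club cell cytochrome, by -5.75 (SE 0.71, adjusted p = 5.61e-08). The exception was Cyp1b1, a cytochrome found in mesenchymal cells among others, at 5.96, 6.12, 6.65, 5.54 and 5.31 in native trachea and 10.87, 10.44, 10.89, 10.40 and 10.19 in allografts. Its rise was 4.64 (SE 0.34, adjusted p = 9.83e-13), and the groups did not overlap.

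Thyroid and parathyroid genes were on the native arrays but near the lower end of the scale in the allografts. Of 8 such genes 5 passed and 4 fell, each of the 4 with no allograft array at 5. Without a filter 7 of the 8 were called lower. Thyroglobulin, Tg, read 14.37, 14.42, 14.36, 14.49 and 14.68 in native trachea and 3.37, 3.35, 3.24, 3.36 and 3.96 in allografts, a difference of -11.01 (SE 0.55, adjusted p = 9.32e-17). Parathyroid hormone, Pth, read 12.41, 12.94, 13.12, 12.71 and 12.71 in native arrays and 2.69, 2.66, 2.81, 2.64 and 2.66 in allografts, a difference of -10.09 (SE 0.86, adjusted p = 2.05e-11). The fifth tested gene, the calcium-sensing receptor Casr, was not called (-0.11, adjusted p = 0.695). These glands lie beside the trachea, and in isografts of day 25 the mean of Tg was 13.31.

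The wall beneath the epithelium was affected unevenly. Cartilage genes did not fall as a group: of 25 on the array 23 passed, 3 rose, 2 fell and 18 were not called, with a median over the 25 of 0.54. Of all tested genes 18.3% rose and 20.0% fell, and the cartilage counts do not exceed these shares. Col2a1, the main collagen of hyaline cartilage, read 10.98, 11.36, 9.56, 11.998 and 11.48 in native trachea and 12.35, 11.72, 11.90, 12.32 and 12.08 in allografts, a difference of 1.00 (SE 0.56, adjusted p = 0.163) that was not called. Aggrecan, Acan, differed by 0.26 (SE 0.60, adjusted p = 0.765). The fibril collagen Col11a1 rose by 1.97 (SE 0.51, adjusted p = 0.00261) and Col9a1 by 1.90 (SE 0.66, adjusted p = 0.0245), the latter losing its call without native replicate 1 or 3 or without allograft replicate 4 (adjusted p up to 0.0901). The other tested probe set of Col9a1 was not called. The lubricant proteoglycan Prg4 fell, from a native range of 9.63 to 10.81 to an allograft range of 7.89 to 8.98, a difference of -1.74 (SE 0.36, adjusted p = 0.000224).

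Smooth muscle genes fell. Of 18 on the array 14 passed, 11 fell and 1 rose, and the median over the 18 was -2.01. Of all tested genes 20.0% fell and 18.3% rose. Acta2, smooth muscle actin, which myofibroblasts also make, read 11.79, 12.19, 11.89, 11.64 and 11.22 in native trachea and 9.54, 9.45, 10.19, 9.08 and 10.66 in allografts, a difference of -1.96 (SE 0.23, adjusted p = 1.53e-08), that is, 3.90-fold lower. Other contractile proteins fell too, the myosin heavy chain Myh11 differing by -3.78 (SE 0.55, adjusted p = 1.5e-06) and calponin, Cnn1, by -4.95 (SE 0.52, adjusted p = 2.68e-09). Cnn1 read 9.55, 9.34, 8.67, 9.41 and 7.39 in native arrays and 4.00, 4.00, 3.92, 3.70 and 3.99 in allografts. Caldesmon, Cald1, went the other way, with a rise of 1.38 (SE 0.21, adjusted p = 3.21e-06).

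Endothelial genes mostly gave no call, where 20.0% of all tested genes fell. Of 25, 22 passed, 3 fell and 19 were not called, and 5 fell without the 3 arrays with neighbouring tissue. The 3 were Lyve1 (-3.11, SE 0.48, adjusted p = 4e-06) and Flt4 (-1.06, SE 0.22, adjusted p = 0.000291), which mark lymphatic vessels, and the water channel Aqp1 (-1.36, SE 0.39, adjusted p = 0.00639). Pecam1, a marker of all endothelium, read 6.04, 4.89, 5.62, 6.62 and 2.99 in native trachea and 7.35, 5.48, 5.84, 5.14 and 5.25 in allografts, so that the spread of both groups was wide and the difference of 0.58 (SE 0.67, adjusted p = 0.526) was not called. Among nerve and Schwann cell genes 9 of 18 passed, 3 fell and 1 rose, with 2 rises without native replicate 1. The adhesion molecule L1cam differed by -1.15 (adjusted p = 1.12e-05) and the Schwann cell factor Sox10 by -0.67 (adjusted p = 0.000808), whose other tested probe set was not called. The neural cell adhesion molecule Ncam1 rose by 2.21 (adjusted p = 2.51e-05).

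Genes of muscle, fat and energy metabolism varied from array to array. The mean over 25 skeletal muscle genes was 11.63, 3.91, 3.75, 4.97 and 6.78 in the 5 allografts and 6.50, 6.26, 7.86, 8.53 and 10.37 in native trachea. Replicate 1 of the allografts was above every native array and replicates 2, 3 and 4 below every one. Of 18 tested members 6 fell, but 18 fell without allograft replicate 1, 10 without native replicate 1, 1 without native replicate 5 or allograft replicate 2 or 3, 1 with the 2 groups fitted alone or with array weights, and 13 without the 3 arrays with neighbouring tissue. Skeletal actin, Acta1, read 13.10, 4.32, 2.38, 7.01 and 9.74 in allografts, its difference of -4.27 (SE 1.52, adjusted p = 0.0278) losing its call in 4 of the 10 leave-one-out fits.

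Brown fat marked 1 allograft. Ucp1, the uncoupling protein of brown adipocytes, read 11.07, 10.65, 11.59, 11.67 and 9.75 in native trachea and 4.18, 13.42, 4.03, 8.82 and 3.81 in allografts. It was high in all native arrays and in allograft replicate 2, intermediate in replicate 4 and low in the other 3. The differences of Ucp1 (-4.09, SE 1.59, adjusted p = 0.0423) and of the lipid droplet protein Cidea (-4.49, SE 1.66, adjusted p = 0.0331) were the only calls among 14 tested adipocyte genes, and both calls were lost in 7 of the 10 leave-one-out fits. Adiponectin, Adipoq, a product of white and brown adipocytes, ran from 10.72 to 12.08 in native trachea and from 10.66 to 12.63 in allografts (0.17, SE 0.96, adjusted p = 0.913).

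The mean of 33 oxidative phosphorylation genes was highest in the allograft with brown fat genes. It was 10.12, 11.37, 9.05, 9.71 and 9.26 in allograft replicates 1 to 5, against 10.46 to 10.93 in native trachea. All 33 members passed and all had a difference below 0, of which 12 were called. The count was 28 without allograft replicate 2, 27 without the 3 arrays, 24 with array weights, 6 without native replicate 4, and 3, 7 and 4 without allograft replicates 3, 4 and 5. It was 3 when the 2 groups were fitted alone. The part of fat and muscle in these values was not tested. Cox8a, a subunit of cytochrome oxidase, differed by -1.35 (SE 0.31, adjusted p = 0.000815) and the complex I subunit Ndufs1 by -0.69 (SE 0.38, adjusted p = 0.154), the latter called at -1.38 (adjusted p = 0.00296) without the 3 arrays.

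Sterol and fatty acid synthesis gave 10 falls among 19 tested genes and no rise, with 13 falls without the 3 arrays. Elovl6, a fatty acid elongase, was also highest in replicate 2, at 5.59, 10.87, 5.82, 7.45 and 5.01 in allografts against 9.38 to 10.26 in native trachea (-2.91, SE 0.81, adjusted p = 0.00533). Glycolysis and hypoxia genes were called at about the share of all tested genes, of which 18.3% rose and 20.0% fell. Of 21 tested, 3 rose, among them Pdk1 (1.58, SE 0.25, adjusted p = 3.95e-06), which diverts pyruvate from mitochondria, and 4 fell, among them the angiogenic factor Vegfa (-1.64, SE 0.31, adjusted p = 9.21e-05). The count of rises was 5 without native replicate 5. Lactate dehydrogenase, Ldha, was not called (-0.30, SE 0.21, adjusted p = 0.282) until the 3 arrays were left out (-0.79, adjusted p = 0.00217).

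**Figure D3:**
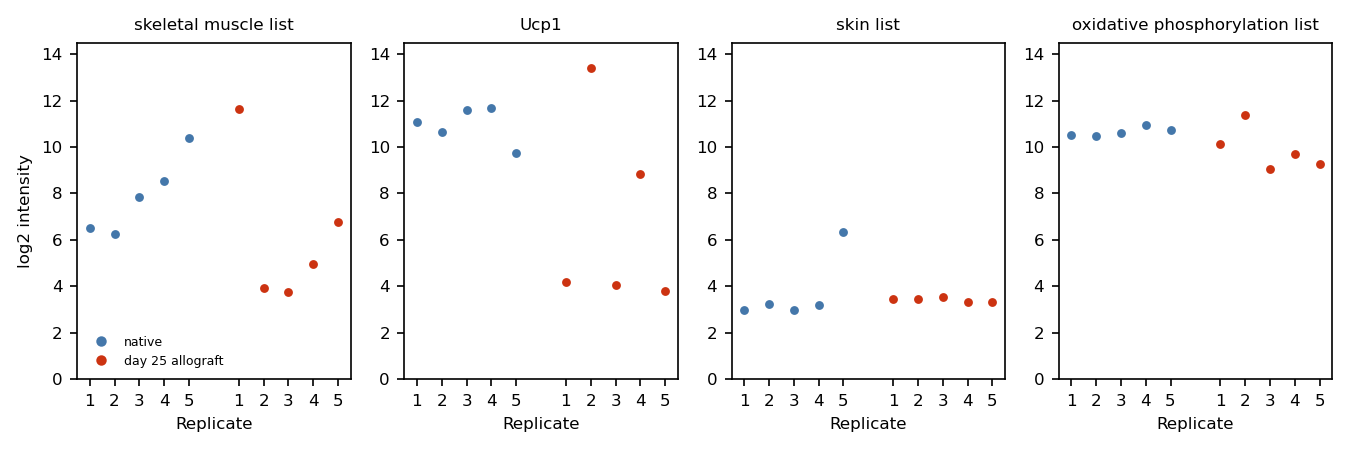
Mean of 25 skeletal muscle genes, level of Ucp1, mean of 15 skin genes and mean of 33 oxidative phosphorylation genes (log2 intensity, vertical axis) on each native and day 25 allograft array by replicate (horizontal axis). Allograft replicate 1 stands high for muscle at 11.63, allograft replicate 2 for Ucp1 at 13.42, and native replicate 5 for skin at 6.32.

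Genes of cytotoxic lymphocytes rose. Of 22 genes of cytotoxic T and natural killer cells 7 passed and all 7 rose, by 2.38 to 4.84, against 18.3% of all tested genes, 4 of them with no native array at 5. Without a filter 17 of 22 were called higher. Granzyme B, Gzmb, a protease that kills target cells, read 3.68, 3.88, 3.80, 3.83 and 3.97 in native trachea and 7.54, 7.37, 7.41, 7.26 and 7.83 in allografts, a difference of 3.65 (SE 0.28, adjusted p = 2.31e-12). The granule protein Nkg7 read 2.74, 3.12, 3.55, 2.87 and 2.99 in native arrays and 7.42, 6.63, 6.80, 8.18 and 7.61 in allografts (4.27, SE 0.30, adjusted p = 2.39e-13). The T cell chemokine Ccl5 differed by 4.84 (SE 0.38, adjusted p = 3.26e-12). Of 16 general T cell genes 13 passed and 10 rose, 2 of the 13 with no native array at 5, and 7 rose without the 3 arrays.

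Cd3e, part of the T cell receptor complex, read 4.81, 4.42, 5.08, 4.57 and 4.48 in native trachea and 5.26, 5.42, 5.41, 6.21 and 5.99 in allografts, a difference of 0.99 (SE 0.28, adjusted p = 0.00546). The CD8 chain Cd8a read 5.36, 3.73, 6.51, 4.74 and 4.65 in native arrays and 5.58, 5.14, 5.70, 5.88 and 5.27 in allografts, groups that overlapped, and its difference of 0.51 (SE 0.31, adjusted p = 0.194) was not called. It was called without native replicate 3 (adjusted p = 0.00858), the native array with the highest value. The costimulatory receptor Cd28 (2.47, SE 0.37, adjusted p = 2.03e-06) and the interleukin-7 receptor Il7r (3.40, SE 0.37, adjusted p = 4.52e-09) showed the largest T cell differences. Interferon-gamma itself, Ifng, was below the filter, at 2.50, 2.84, 2.67, 2.77 and 3.08 in native trachea and 4.28, 3.48, 3.13, 4.55 and 3.71 in allografts. Its values did not overlap between the groups, but all lay near the lower end of the scale.

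Genes induced by interferon-gamma rose nearly throughout their list. Of 27 genes 21 passed, 20 rose and 1, Icam1, was not called, with 2 of the 21 at 5 in no native array. Without a filter 22 of 27 were called higher, and the median over all 27 was 2.05. Cxcl9, a chemokine that draws activated T cells, read 3.35, 3.50, 4.21, 3.50 and 3.70 in native trachea and 11.96, 10.98, 11.47, 11.72 and 11.06 in allografts, a difference of 7.79 (SE 0.41, adjusted p = 3.45e-16). The transporter Tap1, which loads peptides for MHC class I, read 5.23, 5.67, 6.05, 4.59 and 5.32 in native arrays and 8.78, 8.53, 9.10, 9.48 and 9.49 in allografts (3.71, SE 0.28, adjusted p = 2.04e-12). Irf1, a transcription factor that relays the signal, read 7.27, 7.39, 7.69, 7.53 and 7.24 in native arrays and 9.11, 8.57, 9.04, 8.85 and 9.01 in allografts, a 2.81-fold difference (1.49, SE 0.18, adjusted p = 4.6e-08). The ligand Cd274 (PD-L1), which restrains T cells, rose by 2.90 (adjusted p = 1.64e-06). The immunity-related GTPases Igtp and Irgm2 rose by 3.39 and 3.23.

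Promoters of these genes are shown because the list moved together. The 250 bases before the start were taken from the RefSeq table of GRCm38.p6, in which 20 of the 27 genes were matched. Capitals mark matches on either strand to TTCNNNGAA, the core of the gamma-activated site, and to the interferon-stimulated response element, searched as 2 runs of GAAA with any 2 bases between them, where overlapping matches are merged into 1 run. The windows are chr11:58199306-58199555 on the plus strand, chr11:53769764-53770013 on the plus strand (the one of 2 starts with a match), chr19:34583279-34583528 on the plus strand and chr5:92328080-92328329 on the minus strand, each printed 5′ to 3′. Ifit3 belongs to the type I interferon list described after them.
Igtp: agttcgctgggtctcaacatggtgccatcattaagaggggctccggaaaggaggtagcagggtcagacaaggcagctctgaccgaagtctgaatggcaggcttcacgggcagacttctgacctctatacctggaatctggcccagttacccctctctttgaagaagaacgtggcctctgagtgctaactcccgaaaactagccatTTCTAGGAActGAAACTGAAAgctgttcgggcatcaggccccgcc
Irf1: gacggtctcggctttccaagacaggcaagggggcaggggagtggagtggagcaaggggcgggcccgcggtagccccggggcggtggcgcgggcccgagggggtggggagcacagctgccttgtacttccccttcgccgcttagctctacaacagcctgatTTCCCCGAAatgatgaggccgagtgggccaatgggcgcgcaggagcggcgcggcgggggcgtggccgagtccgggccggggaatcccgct
Ifit3: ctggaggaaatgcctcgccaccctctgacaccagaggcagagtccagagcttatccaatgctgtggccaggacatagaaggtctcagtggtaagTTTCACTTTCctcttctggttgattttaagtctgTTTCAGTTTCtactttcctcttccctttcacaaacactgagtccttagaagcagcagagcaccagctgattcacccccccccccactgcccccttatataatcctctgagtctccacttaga
Cxcl9: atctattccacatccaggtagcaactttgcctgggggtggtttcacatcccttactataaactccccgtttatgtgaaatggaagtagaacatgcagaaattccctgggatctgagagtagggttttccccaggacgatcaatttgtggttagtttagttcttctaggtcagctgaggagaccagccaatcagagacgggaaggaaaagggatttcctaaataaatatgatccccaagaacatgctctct
Igtp holds both kinds of match, Irf1 a gamma-activated site and Ifit3 a pair of response elements, while these letters are not in the window of Cxcl9, the gene with the largest rise. Over the list, 6 of 20 genes (30.0%) held TTCNNNGAA and 8 (40.0%) held the response element, against 8.13% and 3.46% of 27025 genes of the whole table. In the type I interferon list the counts were 5 (35.7%) and 7 (50.0%) of 14 genes. A match is a string of letters and not a measured binding site.

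Genes of the type I interferon response rose in part. Of 19, 17 passed, 12 rose and 1 fell, with a median over the 19 of 1.16. Trim30a read 5.96, 5.65, 6.91, 5.57 and 5.51 in native trachea and 9.38, 9.35, 10.23, 9.11 and 9.63 in allografts (3.62, SE 0.34, adjusted p = 1.73e-10). Ifit3, an antiviral protein, read 3.61, 3.82, 5.54, 5.92 and 3.88 in native arrays and 8.54, 7.92, 7.96, 7.13 and 7.33 in allografts (3.22, SE 0.58, adjusted p = 3.6e-05), the native arrays being spread over more than 2 log2 units. The exonuclease Isg20 differed by -1.84 (adjusted p = 0.000473). The difference between both interferon lists was not tested.

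Genes of antigen presentation rose with 1 exception. All 5 tested genes of 7 MHC class I genes rose, by 1.13 to 1.89, B2m, the common light chain, by 1.31 (SE 0.16, adjusted p = 7.61e-08). Of 9 genes of class II chains and their loading 8 passed, 7 rose and 1 fell. H2-Ab1, a class II beta chain, read 8.71, 8.49, 9.22, 8.28 and 7.71 in native trachea and 11.61, 11.003, 11.61, 12.11 and 12.03 in allografts (3.19, SE 0.23, adjusted p = 4.5e-13), and H2-DMa, which helps to load class II peptides, rose by 4.64 (SE 0.42, adjusted p = 6.55e-11). The exception was H2-Ea, a class II alpha chain that mice of some MHC haplotypes do not transcribe. It read 7.93, 8.18, 8.09, 8.44 and 7.95 in native trachea and 7.20, 6.60, 7.19, 7.33 and 7.48 in allografts, a difference of -0.96 (SE 0.21, adjusted p = 0.000541) with no overlap. Its other tested probe set went from a mean of 8.92 to 4.58, a difference of -4.34 (adjusted p = 1.71e-08), while its partner chain H2-Eb1 rose by 3.36 (adjusted p = 1.18e-13). MHC genes have close paralogs, and the probe sets of the array may read more than 1 of them.

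Macrophage genes rose nearly throughout their list. Of 27, 22 passed, 20 rose and 2 fell, 5 of the 22 had no native array at 5, and the median over the 27 was 3.54. Cd68, a lysosomal protein of macrophages, read 5.65, 5.10, 5.78, 5.03 and 3.71 in native trachea and 8.78, 9.43, 9.88, 9.20 and 10.47 in allografts (4.50, SE 0.33, adjusted p = 9.83e-13). Adgre1, the F4/80 antigen, read 5.66, 6.14, 5.84, 6.39 and 6.62 in native arrays and 9.69, 9.13, 10.63, 9.57 and 10.56 in allografts (3.79, SE 0.23, adjusted p = 8.56e-15). Neither gene's groups overlapped. Clec7a (5.33, SE 0.37, adjusted p = 2.76e-13) and the cytoskeletal protein Aif1 (4.69, SE 0.34, adjusted p = 4.89e-13) showed the largest rises of the list. The 2 falls were the endotoxin co-receptor Cd14 (-1.66, SE 0.33, adjusted p = 0.000134) and the lysozyme Lyz2 (-0.65, SE 0.21, adjusted p = 0.0168), and the latter lost its call without native replicate 1, without allograft replicate 2 and without the 3 arrays.

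Allied myeloid programmes went the same way. In the lysosome list all 19 genes passed, 16 rose and none fell, led by cathepsin S, Ctss, which processes class II antigen, at 8.62, 9.01, 9.07, 8.16 and 8.85 in native trachea and 12.85, 12.92, 13.70, 12.93 and 13.77 in allografts (4.49, SE 0.22, adjusted p = 6.79e-17). Of 15 complement genes 12 passed, 9 rose and 1 fell. The C1q chain C1qb rose by 4.40 (SE 0.25, adjusted p = 1.94e-15) and the receptor C3ar1 by 4.35 (SE 0.38, adjusted p = 3.97e-11), whereas Cd55, which protects cells from complement, differed by -1.16 (SE 0.28, adjusted p = 0.00119) on its brightest probe set and was not called on the other. Dendritic cell genes gave 8 rises among 9 tested of 17, with the integrin Itgax at 4.87 (adjusted p = 2.53e-12) and the factor Irf8 at 3.19 (adjusted p = 8.65e-09). Of 17 genes of alternative macrophage activation 10 passed and 7 rose, among them the mannose receptor Mrc1 (3.26, SE 0.27, adjusted p = 1.56e-11) and the lectin Clec10a (2.81, SE 0.36, adjusted p = 9.36e-08). Arginase, Arg1, was below the filter and uneven, at 2.35, 5.44, 5.61, 2.28 and 8.43 in allografts.

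Genes of acute inflammation rose in part. Of 22 genes 14 passed and 8 rose, where 18.3% of all tested genes rose and 20.0% fell. The monocyte chemokine Ccl8 rose from a native range of 4.97 to 6.45 to an allograft range of 11.89 to 12.81 (6.56, SE 0.49, adjusted p = 1.32e-12). Its relative Ccl12 rose from a native range of 1.54 to 2.67 to an allograft range of 5.91 to 7.55 (4.38, SE 0.48, adjusted p = 6.64e-09). Interleukin-1 beta, Il1b, read 4.63, 4.46, 5.37, 4.40 and 4.98 in native trachea and 6.69, 7.03, 7.54, 6.79 and 8.09 in allografts (2.46, SE 0.51, adjusted p = 0.000259). Il6 was below the filter, with no array of either group above 3.15. Of 15 neutrophil genes 8 passed and 5 rose. The calgranulin S100a9 read 4.46, 6.11, 4.51, 4.83 and 5.73 in native trachea and 7.15, 8.91, 5.41, 6.62 and 6.76 in allografts, groups that overlapped (1.84, SE 0.62, adjusted p = 0.0194), and its call was lost without native replicate 1, without allograft replicate 2 (adjusted p up to 0.0779) and without the 3 arrays (1.29, adjusted p = 0.149). The receptor Fpr2 rose by 4.82 (SE 0.59, adjusted p = 5.66e-08). Mast cell genes fell in 3 of 4 tested genes of 13, the histamine-making enzyme Hdc differing by -3.55 (SE 0.48, adjusted p = 3.02e-07) and the protease Cpa3 by -0.91 (SE 0.26, adjusted p = 0.00653).

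Plasma cell products rose. Of 20 B and plasma cell genes 11 passed, 7 rose and 1 fell. The heavy chain Ighm read 6.42, 6.38, 8.82, 5.32 and 4.32 in native trachea and 11.32, 11.38, 11.15, 12.11 and 10.94 in allografts (5.13, SE 0.76, adjusted p = 1.77e-06). The light chain segment Iglv1 read 5.59, 5.03, 5.94, 4.02 and 2.80 in native arrays and 8.77, 9.82, 9.49, 8.95 and 11.16 in allografts (4.97, SE 0.59, adjusted p = 3.27e-08). The J chain, Jchain, which joins antibody units, rose by 2.81 (SE 0.72, adjusted p = 0.00242). Immunoglobulin genes share sequence, and the tested probe sets named Ighm gave rises from 3.93 to 8.23, so the isotype behind a value is uncertain. Sdc1, a plasma cell marker that epithelium also carries, differed by -1.06 (SE 0.33, adjusted p = 0.0121) on its brightest probe set, was not called on its 3 other tested probe sets, and was not called without the 3 arrays (-0.66, adjusted p = 0.172).

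Collagen genes rose. All 23 genes of fibrillar and associated collagens passed, 18 rose, 1 fell and 4 were not called, with a median of 1.44 and no member passing through 1 group alone. Of all tested genes 18.3% rose. Col1a1, a chain of the main scar collagen, read 10.19, 10.57, 10.19, 11.79 and 10.98 in native trachea and 13.13, 13.51, 13.44, 13.45 and 13.53 in allografts, a 6.35-fold difference (2.67, SE 0.31, adjusted p = 2.27e-08). Its other, dimmer tested probe set was not called (-0.71, adjusted p = 0.213). Col3a1 read 12.43, 12.46, 12.52, 13.34 and 12.997 in native arrays and 14.34, 14.37, 14.56, 14.12 and 14.29 in allografts, a 3.00-fold difference (1.59, SE 0.19, adjusted p = 3.11e-08). Col8a1, a short-chain collagen of vessels and remodelling tissue, rose by 3.13 (SE 0.30, adjusted p = 4.69e-10) and the fibril regulator Col5a2 by 2.70 (SE 0.25, adjusted p = 2.08e-10). The 1 fall, the prolyl hydroxylase P4ha1 (-0.91, SE 0.35, adjusted p = 0.0434), lost its call in 6 of the 10 leave-one-out fits (adjusted p up to 0.192).

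Of 30 matricellular and small matrix proteins 29 passed, 19 rose and 1 fell, where 18.3% of all tested genes rose and 20.0% fell. Periostin, Postn, made by activated fibroblasts, read 9.98, 10.13, 10.30, 10.68 and 10.55 in native trachea and 12.90, 13.52, 13.75, 13.02 and 13.24 in allografts (2.96, SE 0.30, adjusted p = 9.71e-10). Thrombospondin 2, Thbs2, read 5.54, 5.41, 5.34, 6.37 and 4.39 in native arrays and 9.23, 9.62, 10.16, 9.70 and 9.58 in allografts, the largest rise of the list (4.24, SE 0.29, adjusted p = 1.98e-13). Fibronectin, Fn1, rose by 1.45 (SE 0.26, adjusted p = 2.9e-05). The fall was thrombospondin 4, Thbs4 (-1.27, SE 0.37, adjusted p = 0.00755), which was not called without the 3 arrays (-1.03, adjusted p = 0.0577). The small proteoglycan Dcn, abundant in connective tissue, was not called (adjusted p = 0.991).

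Matrix turnover genes rose in 12 of 19 tested members of 22, and none fell. Mmp12 read 2.56, 2.84, 3.30, 2.95 and 3.88 in native trachea and 8.002, 9.49, 9.59, 8.33 and 9.97 in allografts (5.97, SE 0.45, adjusted p = 1.22e-12). Stromelysin 1, Mmp3, rose by 4.76 (SE 0.42, adjusted p = 5.1e-11), and the inhibitor Timp1 by 3.61 (SE 0.50, adjusted p = 5.54e-07). Of 30 genes of TGF-beta and BMP signalling 21 passed, 3 rose and 4 fell, with a median over the 30 of 0.06. These counts lie near the shares of all tested genes, of which 18.3% rose and 20.0% fell. Tgfb1, the profibrotic ligand, read 7.53, 6.82, 6.36, 6.57 and 6.41 in native trachea and 6.57, 7.14, 7.40, 8.31 and 9.17 in allografts, groups that overlapped, and its rise (0.98, SE 0.39, adjusted p = 0.0472) lost its call in 7 of the 10 leave-one-out fits. The latent TGF-beta binding proteins were split: Ltbp2 rose by 2.40 (SE 0.28, adjusted p = 1.35e-08), and Ltbp4 and Ltbp1 differed by -2.79 (SE 0.33, adjusted p = 3.2e-08) and -1.99 (SE 0.31, adjusted p = 3.21e-06).

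The basement membrane list was split as well. Of 20 genes 18 passed, 5 rose, 5 fell and 8 were not called, where 18.3% of all tested genes rose and 20.0% fell. The rises were Nid2 (2.38, SE 0.28, adjusted p = 2.64e-08), Nid1, Lama4, Lamb1 and Col4a1 (0.87, SE 0.24, adjusted p = 0.00436; Nid1 and Col4a1 each have another tested probe set that was not called), linkers, laminins and a collagen of vessels and stroma. The falls were Col17a1 (-3.27, SE 0.50, adjusted p = 3.54e-06), Lamb3, Col4a5, Lama5 and Col7a1, which include components of the anchor between epithelium and stroma, 3 of the 18 having no allograft array at 5.

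Cell cycle genes rose in part, where 18.3% of all tested genes rose and 20.0% fell. Of 36 cell cycle genes 20 passed, 10 rose and 1, the cyclin Ccnd1, fell (-0.79, SE 0.20, adjusted p = 0.00217; neither other tested probe set was called). The count of rises was 13 without the 3 arrays and 5 when the 2 groups were fitted alone. Mki67, a protein of dividing cells, read 5.42, 3.64, 6.82, 4.75 and 6.44 in native trachea and 6.26, 6.34, 7.43, 6.56 and 7.62 in allografts, groups that overlapped through native replicates 3 and 5 (1.43, SE 0.41, adjusted p = 0.00708). Its call was lost when the 2 groups were fitted alone (adjusted p = 0.0658). The ribonucleotide reductase subunit Rrm2 read 6.09, 4.31, 7.70, 5.82 and 7.06 in native arrays and 7.23, 7.37, 8.74, 8.04 and 8.52 in allografts (1.78, SE 0.41, adjusted p = 0.000918), and its other tested probe set was not called.

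**Figure D4:**
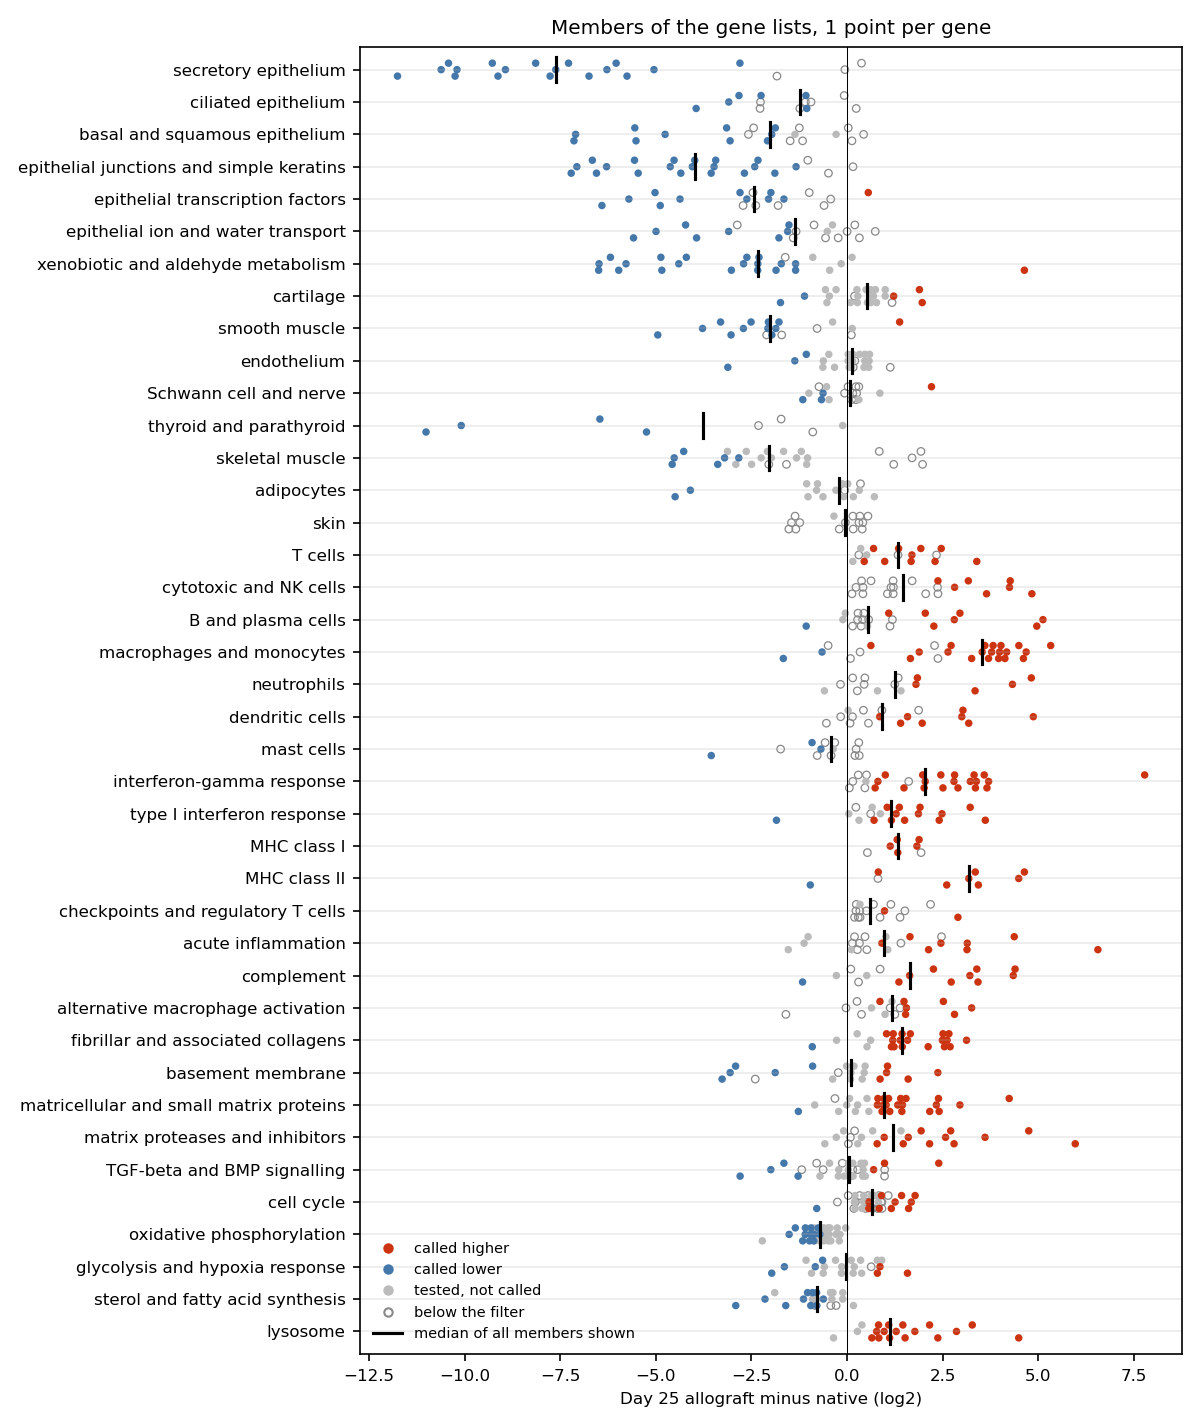
Differences between day 25 allografts and native trachea (log2, horizontal axis) of the members of 40 gene lists, 1 point per gene coloured by its call, with open points for genes below the filter and a bar at the median of all members. Epithelial lists lie to the left, the secretory median at -7.62, and macrophage and interferon-gamma lists to the right, with medians of 3.54 and 2.05.

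Several of the largest rises fall outside these lists. Rpgrip1, named for its part in the photoreceptor cilium, read 2.42, 3.38, 3.75, 2.45 and 4.17 in native trachea and 10.66, 11.01, 10.74, 10.14 and 10.02 in allografts (7.28, SE 0.43, adjusted p = 6.46e-15). It rests on 1 of 4 probe sets, the other 3 being below the filter with differences from 0.12 to 0.47. That probe set already ran from 9.483 to 10.785 in day 4 allografts, against 2.999 to 5.214 in day 4 isografts. The part of strain in these levels was not tested. C1qtnf3, a secreted protein with a C1q domain, read 3.65, 4.67, 3.73, 4.65 and 5.23 in native arrays and 10.75, 10.62, 11.19, 10.91 and 10.94 in allografts (6.50, SE 0.39, adjusted p = 8.56e-15). The homeobox factor Hoxc8 read 2.84, 2.06, 2.24, 2.98 and 3.23 in native trachea and 7.33, 8.50, 9.10, 8.26 and 6.62 in allografts (5.29, SE 0.44, adjusted p = 1.25e-11). Ly86, a partner of a Toll-like receptor relative on myeloid cells and B cells, rose by 5.86 (SE 0.39, adjusted p = 9.42e-14), and Slc15a3, a lysosomal peptide transporter, by 5.44 (SE 0.38, adjusted p = 2.76e-13).

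The day 25 allograft was next compared directly with the day 14 allograft, which asks whether the difference from native trachea changed between those days. Both comparisons use the same 5 day 25 arrays. Of the same 12170 probe sets 348 were called (2.86%), 195 higher (1.60%) and 153 lower (1.26%) at day 25. The 153 became 95 without day 14 allograft replicate 3, and 92 with a filter of log2 7. A 2-fold minimum left 277 (2.28%), 154 higher (1.27%) and 123 lower (1.01%), and arrays did not overlap in 480 (3.94%). By gene, 127 were higher (1.69%) and 117 lower (1.55%). Cartilage genes were higher at day 25 in 16 of 23 tested members and lower in none, with a median over the 25 on the array of 2.17. That count moved by less than 1.5 times when any 1 array was left out. Col2a1 read 7.97, 10.31, 9.35, 8.44 and 10.80 at day 14, against the day 25 values given above, a difference of 2.70 (SE 0.56, adjusted p = 0.00292). Chad, a cartilage matrix protein, read 6.02, 7.01, 7.74, 7.75 and 8.98 at day 14 and 12.30, 10.71, 11.19, 12.38 and 11.24 at day 25 (4.06, SE 0.48, adjusted p = 6.2e-07), and its day 25 values overlapped those of native trachea (12.85, 12.91, 11.91, 11.39 and 11.57). Mia, Otor and Omd, small proteins of cartilage and bone, were higher by 4.28, 4.38 and 3.82, and none of these 3 was called against native trachea. Penk, which encodes enkephalins, was the largest rise, from 4.50, 4.57, 5.82, 5.97 and 6.57 at day 14 to 11.06, 10.58, 10.68, 10.90 and 8.94 at day 25 (4.95, SE 0.45, adjusted p = 4.75e-09).

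Many epithelial genes, but no ciliated gene tested, were lower at day 25 than at day 14. Of 18 tested secretory genes 9 were lower, of 20 junction and simple keratin genes 10, of 12 basal genes 5, and none in these lists was higher. The secretory count was 5 with the 2 groups fitted alone. Krt5 read 8.88, 9.54, 9.54, 8.23 and 6.41 at day 14, a level that overlapped native trachea, and day 25 differed from it by -4.84 (SE 0.59, adjusted p = 1.17e-06). Krt14 read 8.99, 10.61, 10.30, 8.86 and 7.30 at day 14 and 4.46, 4.44, 4.10, 4.11 and 4.08 at day 25 (-4.97, SE 0.77, adjusted p = 8.06e-05). Its native values ran from 5.76 to 9.77, so day 14 was not below native trachea for this gene either. Day 25 differed from native by -3.15. Ltf read 11.26, 10.40, 10.11, 8.79 and 6.90 at day 14 (-5.94, SE 0.53, adjusted p = 4.75e-09), and Krt19 differed by -5.29 (SE 0.61, adjusted p = 4.48e-07). None of the 6 tested ciliated genes was called between these days by limma, nor had any an unadjusted p under 0.05, the largest size being 0.88, and Foxj1 differed by -0.21 (SE 0.45, adjusted p = 0.938).

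Immune lists moved in different directions. Of 11 tested B and plasma cell genes 6 were higher at day 25 (3 with the 2 groups fitted alone) and 1 lower. Jchain read 5.53, 6.63, 6.77, 9.12 and 7.60 at day 14 and 10.86, 10.14, 11.14, 11.38 and 11.53 at day 25 (3.88, SE 0.72, adjusted p = 0.000772), without overlap, and Iglv1 was higher by 3.69 (SE 0.59, adjusted p = 0.000131). Ighm was not called (1.47, SE 0.76, adjusted p = 0.433). Of 8 tested neutrophil genes 4 were lower (2 without allograft replicate 1 of day 25) and none higher, S100a9 differing by -2.83 (SE 0.62, adjusted p = 0.00512). The acute phase protein Saa3 read 9.97, 10.89, 10.44, 10.83 and 11.63 at day 14 and 8.19, 7.32, 7.27, 8.28 and 7.52 at day 25 (-3.03, SE 0.76, adjusted p = 0.0194). Of 20 tested cell cycle genes 6 were lower and none higher. The count of 6 was not firm: it was 2 without day 14 replicate 2 or 3, 3 without day 14 replicate 4 or 5, and 2 without day 25 replicate 1, 2 or 4. Cdk1 differed by -1.42 (SE 0.40, adjusted p = 0.047), whereas Mki67 was not called (-1.20, SE 0.41, adjusted p = 0.142). Gzmb differed by -1.07 (SE 0.28, adjusted p = 0.0276). No interferon-gamma gene of 21 was called by limma (differences from -1.30 to 0.35), though 3 had an unadjusted p under 0.05, all lower. None of 5 MHC class I, 8 class II, 19 lysosome and 17 type I interferon genes was called either, with 0, 3, 0 and 8 at an unadjusted p under 0.05, those of class II higher and those of type I lower. Among collagens Col8a1 alone was higher (1.64, SE 0.30, adjusted p = 0.000805), and Acta2 was lower (-1.28, SE 0.23, adjusted p = 0.00046).

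**Figure D5:**
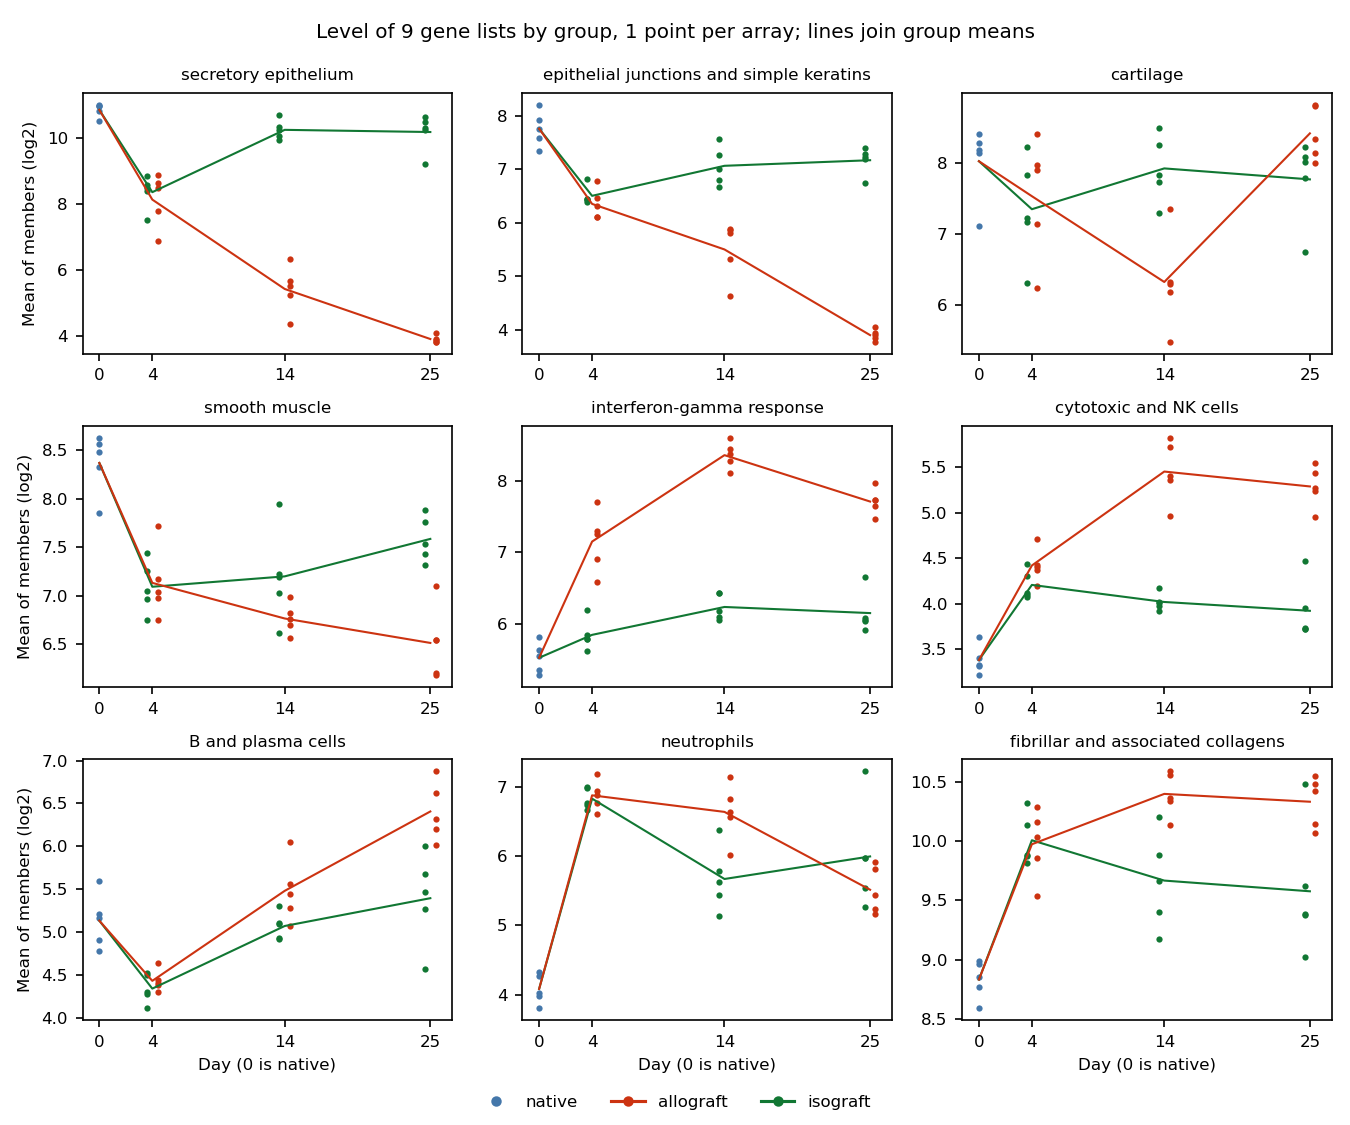
Mean level of 9 gene lists (log2 intensity, vertical axis) on each array against the day (horizontal axis, 0 standing for native trachea), with lines joining the means of isograft and allograft groups. Secretory genes are lowest in the day 25 allografts at 3.83 to 4.11, cartilage genes are at 5.48 to 7.35 in day 14 allografts and 8.004 to 8.83 at day 25, and plasma cell genes are highest in the day 25 allografts at 6.02 to 6.88.

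Against day 25 isografts, which share the transplantation and the time but not the MHC mismatch, the day 25 allografts differed in 1815 of 12170 probe sets (14.9%), 807 higher (6.63%) and 1008 lower (8.28%). The labels give no strain, so other genetic differences between donor and recipient cannot be told apart from the mismatch, here or against native trachea. A 2-fold minimum left 1084 (8.91%), 453 higher (3.72%) and 631 lower (5.18%), and arrays did not overlap in 1235 (10.1%). By gene, 529 were higher (7.02%) and 739 lower (9.81%). With reference gene centring the split was 625 higher and 1331 lower, and with the 2 groups fitted alone 509 were higher. Epithelial genes were lower in allografts: all 18 tested secretory genes and 19 of 20 junction and simple keratin genes were called. Scgb1a1 read 14.21, 14.65, 14.18, 14.38 and 11.49 in the 5 isografts (-9.76, SE 0.53, adjusted p = 1.94e-15) and Foxj1 read 7.64, 8.03, 8.09, 8.20 and 6.68 (-3.40, SE 0.45, adjusted p = 5.79e-07). Isograft replicate 5 was the lowest for both genes. Cartilage genes gave 1 rise and 1 fall among 23, and 7 of 14 smooth muscle genes were lower and 1 higher.

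Interferon-gamma genes were higher in allografts than in isografts. Of 21 tested 18 were called higher and none lower. Cxcl9 read 6.50, 4.98, 4.66, 5.89 and 4.14 in isografts (6.20, SE 0.41, adjusted p = 1.67e-13). Gbp8, a guanylate-binding GTPase, read 5.40, 5.42, 4.50, 5.33 and 3.76 in isografts and 9.22, 8.50, 8.92, 8.68 and 9.43 in allografts (4.07, SE 0.40, adjusted p = 1.44e-09). All 7 tested cytotoxic genes were higher, Gzmb by 3.32 (SE 0.28, adjusted p = 4.6e-11). Of 17 type I interferon genes 3 were higher (6 without isograft replicate 1 or with array weights) and 1 lower. Trim34a, an interferon-induced ubiquitin ligase gene, was higher by 4.09 (SE 0.29, adjusted p = 5.46e-13), its other probe set lying below the filter. Rpgrip1 read 3.19, 4.73, 2.98, 4.48 and 2.29 in isografts (6.98, SE 0.43, adjusted p = 3.91e-14), values that overlapped those of native trachea. H2-Ea read 9.28, 9.05, 9.84, 8.76 and 8.70 in isografts, above native trachea in every array, and was lower in allografts (difference -1.97, SE 0.21, adjusted p = 9.35e-09).

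Myeloid and collagen genes differed in part. Of 22 macrophage genes 10 were higher in allografts (6 with the 2 groups fitted alone) and 1 lower, and Cd68 was not called (0.77, SE 0.33, adjusted p = 0.128), nor was Mmp12 (0.40, SE 0.45, adjusted p = 0.645). The surface receptor Slamf8 was higher by 3.79 (SE 0.34, adjusted p = 1.31e-10). Of 8 neutrophil genes 3 were lower and none higher, S100a9 differing by -3.20 (SE 0.62, adjusted p = 0.000239), with isografts at 12.998, 8.66, 9.02, 9.96 and 10.21. Of 23 collagen genes 10 were higher and none lower. The 10 became 6 without isograft replicate 2 or allograft replicate 3, 5 without isograft replicate 4 or with the 2 groups fitted alone, and 17 with array weights. Col1a1 read 12.47, 11.80, 12.88, 12.16 and 13.70 in isografts and was not called (0.81, SE 0.31, adjusted p = 0.0822), nor was Col3a1 (0.52, SE 0.19, adjusted p = 0.0632), whereas Col8a1 and Postn were higher by 2.17 (SE 0.30, adjusted p = 1.75e-06) and 1.83 (SE 0.30, adjusted p = 2.07e-05). Iglv1 and Ighm were higher by 5.16 (SE 0.59, adjusted p = 3.9e-08) and 4.21 (SE 0.76, adjusted p = 9.4e-05). None of 20 cell cycle genes was higher and 1 was lower.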

How the data were processed

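Tracheal RNA was measured on Affymetrix arrays, and the authors deposited 1 table of log2 intensities made with GCRMA 1.1.3, per the submitters' processing notes. The values were used as deposited. GCRMA models background from probe sequence, so differences at the low end depend on that model. The table holds no detection calls, and the number of arrays limits the precision.

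Of 22626 non-control probe sets, 12170 reached log2 5 in at least 5 of the 10 native and day 25 allograft arrays. The 7 group means were estimated from the 35 arrays together (limma 3.58.1, lmFit then eBayes, under R 4.3.3), leaving 28 residual degrees of freedom, with Benjamini-Hochberg adjustment over the 12170 probe sets and a threshold of 0.05. Symbols came from the platform annotation, and a gene was represented by its tested probe set with the highest mean over the 35 arrays.

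The members and the 42 gene lists were chosen with earlier results of these data known. Named by rule were 50 anchor genes, the 2 largest called members of each list and the largest in the other direction, and the largest changes of each comparison without overlap (10 in each direction against native trachea, 8 in the others). Other list members named in the text were chosen after their values were seen. Anchors that the annotation does not name (5) are not reported.

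The fit was tested on simulated data with known changes. Over 10 draws, 53 to 71 of 100 planted changes of log2 size 1 were called, and 89 to 97 of 100 of size 2. The simulated arrays held no other group difference, unlike these data. A difference that was not called is therefore not shown to be absent. Alternatives changed the filter, the arrays in the fit, array weights, the variance model, the normalization, the scaling, the replicate block, the threshold and the probe sets of a gene, and left out each array in turn. Leaving out the 3 arrays with neighbouring tissue was chosen after seeing the data.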

Additional observations from a re-analysis of the deposited data

Results flagged for a closer look

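In 272 sets of 5 arrays (named genes in native trachea or in day 25 allografts), 1 array stood apart from the other 4 in 17, judged by its gap to the nearest value over the range of the 5. Chance gives such a gap in about 1 of 20 sets. Native replicate 5, the array with skin markers, did so for 6 genes. It was lowest for Atp1b1 at 11.644 (the others from 11.976 to 12.065), for Cbr2 at 12.403 (13.371 to 13.51) and for Tppp3 at 9.273 (9.813 to 10.021). It was highest for Col4a1 at 11.79 (10.908 to 11.153), for Dsp at 11.838 (8.887 to 9.558) and for Lipf at 13.749 (13.073 to 13.25). Among the other native arrays, replicate 4 was lowest for Cd28 at 3.607 (4.225 to 4.395) and replicate 3 highest for Ldha at 11.367 (10.971 to 11.036).

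In the day 25 allografts, replicate 1, the array with skeletal muscle genes, was highest for Atp1b1 at 9.158 (5.439 to 6.02), highest for Krt15 at 2.803 (2.593 to 2.62) and lowest for Col1a1 at 13.13 (13.442 to 13.533). Replicate 2, the array with brown fat genes, was highest for Pdk1 at 7.757 (6.301 to 6.651). Replicate 3 was highest for Cald1 at 10.591 (9.736 to 9.889), for Foxa1 at 3.182 (2.953 to 3.006) and for Grhl2 at 7.297 (6.868 to 6.959). Replicate 4 was lowest for Cnn1 at 3.704 (3.92 to 4.003), and replicate 5 was highest for Tg at 3.955 (3.238 to 3.37). The allograft values of Krt15, Foxa1, Cnn1 and Tg lie near the lower end of the scale.

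The difference from native trachea itself differed between day 25 and day 14 allografts in 348 probe sets, and between day 25 allografts and day 25 isografts in 1815 probe sets, by limma's test of the difference with adjustment over 12170 probe sets.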

How the results depend on the processing

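Called probe sets against native trachea numbered 4427 and ran from 3572 to 4698 when each array was left out. They were 2523 with a filter of log2 7, 2924 at an adjusted p under 0.01 and 2252 with a difference of at least 2-fold. Against day 14 allografts the 348 calls ran from 245 to 372 when each array was left out and were 198 at an adjusted p under 0.01. Against day 25 isografts the 1815 calls ran from 1517 to 1929 when each array was left out, and were 1053 with the filter of log2 7 and 1084 with the 2-fold minimum. The other settings moved none of these 3 totals by more than 1.5 times. Among the counts by direction, the 153 lower against day 14 were 92 with the filter of log2 7 and ran from 95 (without day 14 allograft replicate 3) to 166 when each array was left out, and the 807 higher against isografts were 509 with the 2 groups fitted alone. Reference gene centring gave 625 higher and 1331 lower against isografts. With the replicate number as a block the counts were 4464, 344 and 1826. Same-numbered native and allograft arrays did not deviate together (correlations from -0.25 to 0.01), so the numbers were not taken as a pairing. Of the named genes, 4 uncalled differences and the call of Grhl2 changed sign. Acan was -0.0249 without native replicate 3 and ran up to 0.4888 when other arrays were left out. Adipoq was -0.22 with array weights, -0.0488 without native replicate 5, -0.0516 without allograft replicate 2 (up to 0.4422 without others) and -0.42 without the 3 arrays with neighbouring tissue. Omd was -0.29 with array weights, -0.0038 with reference gene centring, -0.0146, -0.0589 and -0.1042 (up to 0.3966 without others) without native replicate 3, native replicate 5 and allograft replicate 1, and -0.12 without the 3 arrays. Pecam1 was -0.38 without the 3 arrays, and Grhl2 was -1.25 as the mean of its probe sets. The cause was not tested. The table holds no detection calls, so differences from levels near the lower end of the scale are the least certain.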

Other observations

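Genes of T cell checkpoints and regulatory T cells were mostly below the filter. Of 16 on the array 3 passed and 2 rose, Cd274 and Tgfb1, the latter losing its call in 7 of the 10 leave-one-out fits. Without a filter 9 of the 16 were called higher and none lower, and the median over the 16 was 0.60. Of the 13 genes used for the centring alternative, 3 were higher in day 25 allografts than in native trachea, where 18.3% of all tested genes rose and 20.0% fell. Among the 3 was the lysosomal enzyme Gusb, with a difference of 1.46. The other tested probe set of Gusb was not called (1.41, limma, adjusted p = 0.0516). The RNA polymerase II subunit Polr2a was the 1 that was lower, with a difference of -0.47 (limma, adjusted p = 0.0483), and that call was lost in 8 of the 10 leave-one-out fits.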
